A study of Mus musculus with 13 samples.

Results

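The NRF2 pathway and glutathione genes followed here are 10 genes: Nfe2l2, Keap1, Gclc, Gclm, Nqo1, Txnrd1, Srxn1, Gsta4, Gstm1 and Gpx1. They were picked by name out of 55401 named gene identifiers in the deposited annotation, and each name belonged to 1 identifier. Bulk RNA-seq was measured in 13 libraries of frozen mouse brain hemisphere, with 5 control (CTL), 4 cuprizone (CPZ) and 4 recovery (RCV) libraries. The mice were male and 6 to 8 weeks old per the labels. The paper gives an older age for the mice. Whether the label age is that at the start of the diet or at tissue collection was not established. CPZ mice ate chow with 0.3% cuprizone, a copper chelator that injures oligodendrocytes, for 4 weeks and were killed at that point. RCV mice ate it for 4 weeks and then control chow for 2 weeks, and CTL mice ate control chow for 6 weeks. CPZ tissue was therefore taken 2 weeks earlier in the study than CTL and RCV tissue, and the diet and this gap cannot be told apart. The labels do not say which mouse gave which library, so p-values measure the spread between libraries.

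Nfe2l2 encodes NRF2, a transcription factor that is held down by KEAP1, the adaptor that hands it to a ubiquitin ligase. Oxidants and electrophiles modify KEAP1, NRF2 protein then accumulates, and it binds antioxidant response elements together with small MAF proteins. Its known targets include the subunits that make glutathione (Gclc, Gclm), a quinone reductase (Nqo1), the thioredoxin and sulfiredoxin enzymes (Txnrd1, Srxn1) and glutathione transferases (Gsta4, Gstm1), and Gpx1 uses glutathione to reduce peroxides. NRF2 is controlled mainly as a protein, which RNA-seq does not measure.

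The promoters of these genes were searched for the core of the antioxidant response element, TGACNNNGC, on both strands. RefSeq promoter windows of GRCm38.p6, from 250 bases before to 50 bases after a transcript start, were at hand for 8 of the 10 genes, in 11 windows. A match was found in 4 windows of 4 genes, and 12.4% of all 32851 windows of 300 bases held one. The 3 upstream stretches with a match are printed because they show where the letters lie in Nfe2l2 itself and in Gclm and Txnrd1, with the match in capitals and the 5′ end first. They are Nfe2l2 at chr2:75704664-75704913 on the minus strand, Gclm at chr3:122245307-122245556 on the plus strand and the second of 3 Txnrd1 windows at chr10:82858956-82859205 on the plus strand.
Nfe2l2: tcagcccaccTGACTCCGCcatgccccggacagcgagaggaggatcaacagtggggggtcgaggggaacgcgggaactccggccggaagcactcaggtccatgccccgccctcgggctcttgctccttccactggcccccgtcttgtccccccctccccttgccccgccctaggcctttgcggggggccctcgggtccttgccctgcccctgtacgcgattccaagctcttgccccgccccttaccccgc
Gclm: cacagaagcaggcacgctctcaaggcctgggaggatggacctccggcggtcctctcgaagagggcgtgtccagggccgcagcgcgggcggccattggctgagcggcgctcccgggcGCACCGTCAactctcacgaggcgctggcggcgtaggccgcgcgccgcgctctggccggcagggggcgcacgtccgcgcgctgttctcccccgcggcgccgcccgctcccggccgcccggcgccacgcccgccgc
Txnrd1: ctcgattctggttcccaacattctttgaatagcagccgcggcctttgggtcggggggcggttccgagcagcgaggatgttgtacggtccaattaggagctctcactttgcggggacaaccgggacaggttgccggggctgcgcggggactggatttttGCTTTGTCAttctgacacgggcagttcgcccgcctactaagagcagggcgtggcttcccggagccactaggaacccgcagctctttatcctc
The match began 240 bases before the start in Nfe2l2 (TGACTCCGC), 134 bases before it in Gclm (GCACCGTCA) and 92 bases before it in Txnrd1 (GCTTTGTCA). In Srxn1 it lay downstream, at base 29 after the start (GCTAGGTCA). No match overlapped the AP-1 motif TGACTCA, which 5.20% of all windows held. The windows of Keap1, Nqo1, Gstm1 and Gpx1 held no match, and those of Gclc and Gsta4 were not analysed here. A match describes the letters and not the binding of a factor.

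Libraries held 4605100 to 8197289 estimated counts, and 14985 genes were tested. The mix of cells differed between the groups. Markers of microglia summed to 390 to 465 CPM (counts scaled to a common library size) in CTL, 1357 to 2832 in CPZ and 594 to 827 in RCV libraries, and 12 of 12 were higher in CPZ than in CTL. Markers of mature oligodendrocytes summed to 4366 to 8188, 1855 to 3164 and 5741 to 9826 CPM, and 10 of 10 were lower in CPZ than in CTL. Of 10 astrocyte markers 6 were higher in CPZ than in CTL, and of 8 neuronal markers none was called by edgeR, with none at an unadjusted p under 0.05. The 6 choroid plexus markers summed to 417 to 2746 CPM in CTL and 616 to 2342 CPM in CPZ, but to only 13.4 and 14.9 CPM in RCV libraries 3 and 4. No marker of these lists was at 0 in all 13 libraries. In bulk tissue, fewer cells of a type and less RNA per cell cannot be told apart.

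Nfe2l2 rose in CPZ. The gene lies on chromosome 2 at 75675513-75704641 on the minus strand (mm10). Its level was 13.2, 16.8, 15.9, 13.7 and 13.2 CPM in the CTL libraries, 38.1, 32.4, 27.8 and 26.0 CPM in the CPZ libraries and 18.6, 24.1, 18.04 and 16.4 CPM in the RCV libraries. Every CPZ library was above every CTL and RCV library, and RCV overlapped CTL at its lower end, where RCV 4 was below CTL 2. The group means were 14.6 ± 1.69 CPM (SD, n = 5) in CTL, 31.1 ± 5.38 (n = 4) in CPZ and 19.3 ± 3.32 (n = 4) in RCV, from 72 to 267 counts per library. In the edgeR fit CPZ was 2.13-fold above CTL, a log2 fold change of 1.09 ± 0.13 (SE, 95% interval 0.81 to 1.37, adjusted p = 2.61e-05). CPZ was 1.60-fold above RCV, with a log2 fold change of 0.68 (95% interval 0.39 to 0.97, adjusted p = 0.00609). RCV against CTL gave 0.41 (95% interval 0.12 to 0.71), which was not called after adjustment (unadjusted p = 0.00947, adjusted p = 0.416). The call of CPZ against CTL held under all 25 alternatives of processing and left-out libraries. The call of CPZ against RCV was lost under 2 of the 25. It became 0.55 (adjusted p = 0.0865) without RCV libraries 3 and 4, and 0.47 (adjusted p = 0.109) with the choroid plexus score as a covariate. The summed microglial markers were 2832, 2501, 1357 and 1707 CPM in CPZ libraries 1 to 4, and the first and second of these also had the highest Nfe2l2. CPZ 4 had more of the markers than CPZ 3 but less Nfe2l2, at 26.0 against 27.8 CPM. The part of the cell mix in the rise of Nfe2l2 was not tested.

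**Figure D1:**
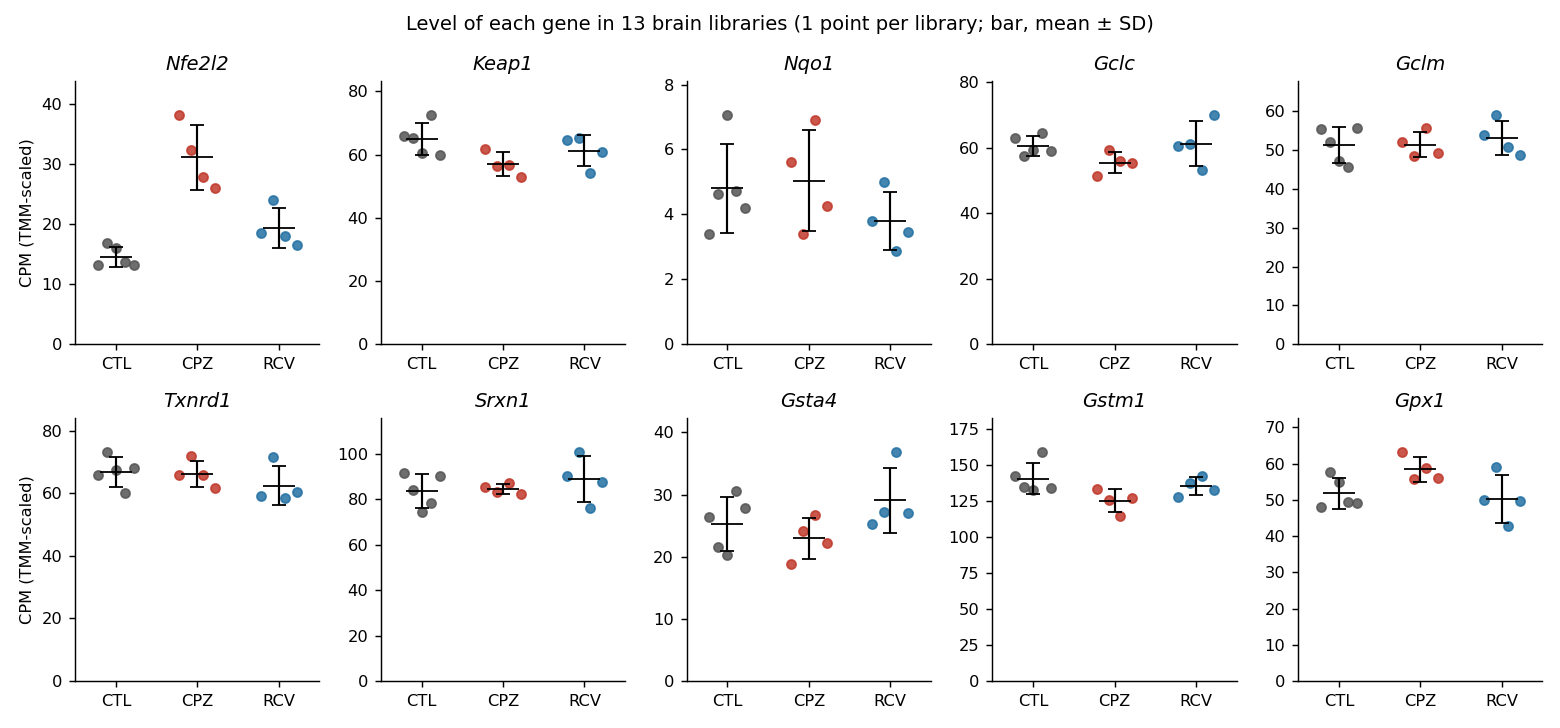
Level of each of the 10 genes in TMM-scaled CPM (y axis, from 0) in the CTL, CPZ and RCV libraries (x axis), with 1 point per library and a bar for the mean ± SD. The 4 CPZ libraries sit at 26.0 to 38.1 CPM for Nfe2l2, above all CTL and RCV libraries, while the groups overlap for the other 9 genes.

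Keap1, the inhibitor, did not pass the test in any comparison. It lies on chromosome 9 at 21229730-21239361 on the minus strand. Its level was 66.0, 65.4, 60.5, 72.4 and 60.0 CPM in CTL, 61.9, 56.4, 56.7 and 52.8 CPM in CPZ and 64.6, 65.3, 54.3 and 61.0 CPM in RCV. CPZ libraries lay mostly below CTL libraries, and only CPZ 1 reached into the CTL range. The log2 fold change of CPZ against CTL was -0.19 (95% interval -0.35 to -0.033, unadjusted p = 0.0209, adjusted p = 0.131). RCV differed from CTL by -0.081 (95% interval -0.24 to 0.078) on the log2 scale. An antisense gene, Gm16754, overlaps Keap1 and held 0 to 5 counts per library.

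The balance of factor to inhibitor was read within each library as the ratio of their TPM values, which are scaled to transcript length. The Nfe2l2 to Keap1 ratio was 0.262, 0.340, 0.344, 0.246 and 0.284 in CTL, 0.745, 0.757, 0.562 and 0.618 in CPZ and 0.365, 0.488, 0.428 and 0.363 in RCV. All 4 RCV libraries lay between the highest CTL and the lowest CPZ library, so no groups overlapped. The 2 genes were chosen with earlier results of these data known, and the share of other gene pairs without overlap was not computed. Nfe2l2 is the numerator, so the ratio is not separate from the rise of Nfe2l2 given above. The means were 0.295 ± 0.0449 in CTL, 0.670 ± 0.0956 in CPZ and 0.411 ± 0.0596 in RCV (SD, n = 5, 4 and 4). The log2 difference was 1.19 between CPZ and CTL and 0.48 between RCV and CTL, each with p = 0.0159 in an exact two-sided permutation test, the smallest p that 4 against 5 libraries allow. Both had an adjusted p of 0.0476 over the 6 ratio tests by the exact permutation test. That adjustment covers only these tests. In the edgeR test over all genes, Nfe2l2 itself was not called for RCV against CTL (adjusted p = 0.416), and its groups overlapped. CPZ against RCV gave 0.70, with an exact permutation p of 0.0286, the smallest that 4 against 4 allow, and an adjusted p of 0.0571. Each smaller set with 1 library left out took the adjusted p of the first 2 comparisons to between 0.0571 and 0.107, since fewer libraries raise the smallest p.

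**Figure D2:**
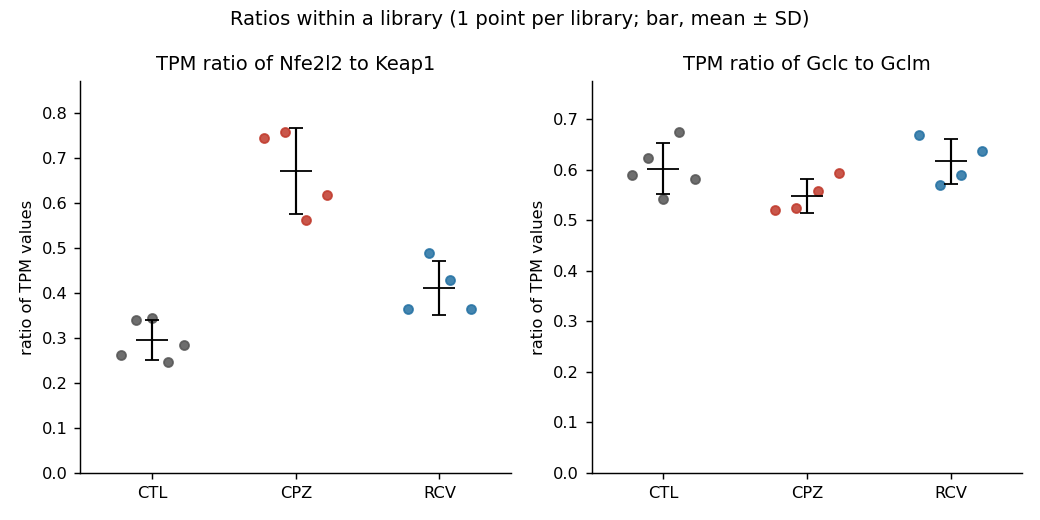
Ratio of TPM values of Nfe2l2 to Keap1 (left) and of Gclc to Gclm (right), y axes from 0, in each CTL, CPZ and RCV library (x axis), with 1 point per library and a bar for the mean ± SD. On the left the 4 RCV libraries, at 0.363 to 0.488, lie between CTL and CPZ; on the right the groups overlap.

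Gclc and Gclm, which encode the catalytic and the modifier subunit of glutamate-cysteine ligase, the first step of glutathione synthesis, were not called in any comparison. Gclc (chromosome 9 at 77754535-77794485, plus strand) was at 62.9, 57.3, 59.2, 64.5 and 58.9 CPM in CTL, 51.3, 59.3, 55.9 and 55.4 CPM in CPZ and 60.4, 61.2, 53.2 and 69.9 CPM in RCV. Its CPZ libraries lay in or below the lower part of the CTL range. The log2 fold change of CPZ against CTL was -0.13 (95% interval -0.28 to 0.030, adjusted p = 0.354). Gclm (chromosome 3 at 122245557-122270732, plus strand) was at 55.5, 52.2, 47.2, 45.6 and 55.6 CPM in CTL, 52.0, 48.6, 55.8 and 49.2 CPM in CPZ and 54.0, 59.0, 50.9 and 48.9 CPM in RCV. The 3 groups of Gclm overlapped, and RCV 2 was the highest library. Its log2 fold change of CPZ against CTL was 0.0047 (95% interval -0.16 to 0.17, adjusted p = 0.985), so a change of more than 1.13-fold in either direction lay outside the interval. Estimated counts of Gclm were not whole in 13 of 13 libraries, which shows reads shared with other genes. The pseudogene Gm6061 and the opposite-strand gene Gm17494 overlap it, with 0 to 17.9 and 25.7 to 54.0 counts per library, and its value is uncertain to that extent.

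The TPM ratio of Gclc to Gclm was 0.602 ± 0.05001 in CTL, 0.549 ± 0.0337 in CPZ and 0.617 ± 0.0447 in RCV (SD, n = 5, 4 and 4). It ran from 0.521 to 0.593 in CPZ, overlapping CTL (0.541 to 0.675) and RCV (0.571 to 0.669). None of the comparisons passed the exact permutation test, with p = 0.111 for CPZ against CTL, 0.0857 for CPZ against RCV and 0.667 for RCV against CTL.

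Nqo1, a quinone reductase widely read as a marker of NRF2 activity, was the lowest of the 10 genes and the most variable. It lies on chromosome 8 at 107388225-107403206 on the minus strand. Its level was 3.39, 4.64, 7.05, 4.73 and 4.21 CPM in CTL, 5.603, 3.39, 6.92 and 4.25 CPM in CPZ and 3.80, 5.01, 2.88 and 3.46 CPM in RCV. The groups overlapped, with means of 4.80 ± 1.36 CPM in CTL, 5.04 ± 1.55 in CPZ and 3.79 ± 0.899 in RCV (SD). These values rest on 15 to 50 counts per library, and the coefficient of variation was 28.4% in CTL, 30.7% in CPZ and 23.7% in RCV. CPZ against CTL gave a log2 fold change of 0.064 (95% interval -0.46 to 0.59, adjusted p = 0.928), an interval that reaches up to 1.501-fold. CPZ against RCV gave 0.39 (95% interval -0.18 to 0.97, adjusted p = 0.486).

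Nqo1 stood high in the same libraries as the choroid plexus markers, a relation that was noticed after the values were seen. The 4 libraries with the most Nqo1 (CTL 3, CPZ 3, CPZ 1 and RCV 2, at 5.01 to 7.05 CPM) were also the 4 with the highest sum of choroid plexus markers, 1432 to 2746 CPM. The other 9 libraries had 2.88 to 4.73 CPM of Nqo1 and 13.4 to 1032 CPM of the markers. Within CTL, library 3 led both, and within RCV, library 2 led both, while within CPZ, library 3 had the most Nqo1 and library 1 the most of the markers. With the choroid plexus score as a covariate, the log2 fold change of Nqo1 was 0.0076 for CPZ against CTL and -0.062 for CPZ against RCV, where it changed sign. How much tissue of the ventricles each hemisphere held was not measured.

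**Figure D3:**
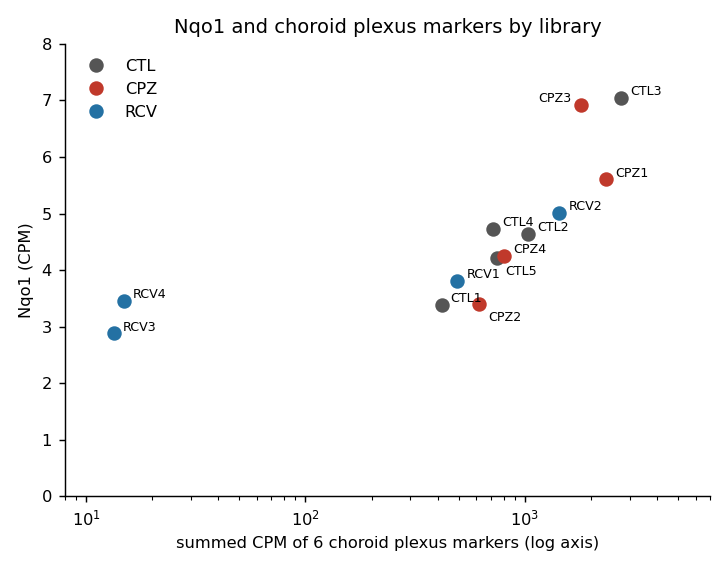
Nqo1 in CPM (y axis, from 0) against the summed CPM of 6 choroid plexus markers (x axis, log scale), with 1 point per library coloured by group. The 4 libraries with the highest Nqo1 lie furthest to the right, at 1432 to 2746 CPM, and RCV libraries 3 and 4 lie far to the left, at 13.4 and 14.9 CPM.

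Txnrd1 and Srxn1, which keep thioredoxin and peroxiredoxins reduced, were not called in any comparison. Txnrd1 (chromosome 10 at 82833951-82897712, plus strand) was at 65.8, 73.2, 67.4, 59.9 and 68.0 CPM in CTL, 65.9, 71.8, 65.7 and 61.7 CPM in CPZ and 59.2, 71.6, 58.5 and 60.3 CPM in RCV. All CPZ libraries of Txnrd1 lay inside the CTL range. RCV 1 and RCV 3 lay just below that range, RCV 4 at its lower end and RCV 2 in its upper part. Its log2 fold change of CPZ against CTL was -0.012 (95% interval -0.17 to 0.15, adjusted p = 0.955). Srxn1 (chromosome 2 at 152105516-152111376, plus strand) was at 91.5, 83.9, 74.3, 78.2 and 90.4 CPM in CTL, 85.6, 83.4, 87.2 and 82.3 CPM in CPZ and 90.2, 100.8, 76.2 and 87.8 CPM in RCV. All CPZ libraries lay inside the CTL range. The log2 fold change of Srxn1 was 0.016 (95% interval -0.15 to 0.18, adjusted p = 0.943) for CPZ against CTL and 0.087 (95% interval -0.081 to 0.25) for RCV against CTL.

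The glutathione users Gsta4, Gstm1 and Gpx1 were not called either. Gsta4, a transferase for lipid peroxidation products (chromosome 9 at 78182774-78209349, plus strand), was at 26.4, 21.5, 20.2, 30.7 and 27.8 CPM in CTL, 18.8, 24.1, 26.7 and 22.2 CPM in CPZ and 25.3, 27.1, 36.9 and 27.0 CPM in RCV. RCV 3 was the highest and CPZ 1 the lowest, and only CPZ 3 reached the RCV range. CPZ against RCV gave a log2 fold change of -0.34 (95% interval -0.65 to -0.018, unadjusted p = 0.0398, adjusted p = 0.231). CPZ against CTL gave -0.14 (95% interval -0.44 to 0.16).

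Gstm1, a mu-class transferase (chromosome 3 at 108012255-108017973, minus strand), was at 143, 135, 133, 159 and 134 CPM in CTL, 134, 126, 114 and 128 CPM in CPZ and 128, 138, 143 and 133 CPM in RCV. Of the CPZ libraries only CPZ 1 reached the CTL range. The log2 fold change of CPZ against CTL was -0.17 (95% interval -0.31 to -0.028, unadjusted p = 0.0216, adjusted p = 0.133). Its counts were not whole in 11 of 13 libraries, so part of its reads may be shared with other genes and the value is uncertain. Gpx1, the cytosolic glutathione peroxidase (chromosome 9 at 108338903-108340343, plus strand), was at 48.1, 57.8, 55.0, 49.4 and 49.0 CPM in CTL, 63.2, 55.8, 58.8 and 56.1 CPM in CPZ and 49.9, 59.0, 42.8 and 49.7 CPM in RCV. CPZ lay in the upper part of the CTL range or above it, and RCV 2 lay inside the CPZ range. The log2 fold change of Gpx1 was 0.17 (95% interval -0.0087 to 0.35, adjusted p = 0.255) for CPZ against CTL and 0.21 (95% interval 0.020 to 0.41, unadjusted p = 0.0327, adjusted p = 0.208) for CPZ against RCV. Only without RCV 2 was the second comparison called, at 0.30 with an adjusted p of 0.0482.

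Counts over the 10 genes were read beside those over all genes. In CPZ against CTL, 1 of the 10 genes was called, a share close to that of all tested genes, of which 10.2% were called and 7.66% were called higher. An unadjusted p under 0.05 was reached by 3 of the 10 and by 3310 of the 14985 tested genes. In 1 of the 10 the groups did not overlap, against 13.1% of all genes. In RCV against CTL none was called by edgeR and 1 had an unadjusted p under 0.05, with 0.374% of all genes called and 0.360% called higher, and in none were the groups apart, against 2.90% of all genes. In CPZ against RCV 1 was called, where 7.01% of all genes were called and 5.13% were called higher, and in 1 the groups did not overlap, against 13.2%. An unadjusted p under 0.05 was reached there by 3 of the 10 and by 2862 of all genes. The median log2 fold change of the 10 genes was -0.0037, -0.014 and -0.061 in these comparisons, and that of all genes -0.020, -0.0044 and -0.0067. For the 9 genes other than Nfe2l2, log2 fold changes of CPZ against CTL ran from -0.19 to 0.17, with 5 below and 4 above 0, and adjusted p from 0.131 to 0.985. The comparisons of CPZ and of RCV with CTL share the CTL libraries.

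**Figure D4:**
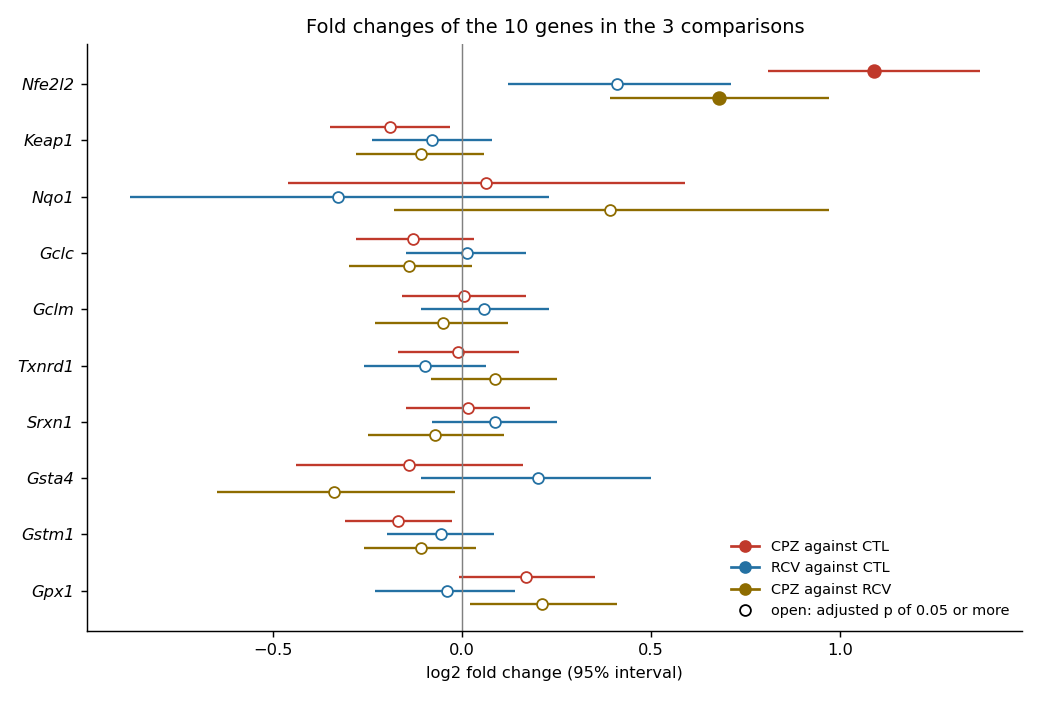
Log2 fold change with its 95% interval (x axis) of each of the 10 genes (y axis) in the 3 comparisons between groups, filled where the adjusted p of the edgeR test was under 0.05. Only Nfe2l2 has filled points, at 1.09 for CPZ against CTL and 0.68 for CPZ against RCV, and the intervals of Nqo1 are the widest.

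Levels of the genes can be set against each other only per length, in TPM. In CTL, Gstm1 was the highest at 258 ± 19.96 TPM (SD, n = 5), followed by Gpx1 at 160 ± 19.3. Srxn1, Gsta4 and Gclm stood at 71.4 ± 7.61, 63.9 ± 11.7 and 62.5 ± 4.31 TPM, and the ranges of neighbours in this order overlapped. Txnrd1, Keap1 and Gclc followed at 48.2 ± 2.94, 43.5 ± 3.47 and 37.5 ± 1.95 TPM, again with overlap between neighbours. Nfe2l2 at 12.8 ± 1.40 and Nqo1 at 7.01 ± 1.96 TPM were lowest, and their ranges did not overlap. The order in RCV was that of CTL. In CPZ, Gclm stood above Gsta4, and Nfe2l2 rose to 27.1 ± 5.02 TPM (n = 4), where its range of 22.0 to 33.6 overlapped that of Gclc, 32.8 to 36.2.

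Other genes of the pathway were read from 4 lists that hold 81 genes besides these 10, of which 76 were tested. The lists were chosen with earlier results of these data known, so counts and medians over them are descriptions only. Of the 76, 10 were called higher and 1 lower in CPZ against CTL, 1 higher in RCV against CTL, and 7 higher and 1 lower in CPZ against RCV. The genes called higher in CPZ in both comparisons include Maff, which passed the filter on counts only through its high CPZ libraries. Over all tested genes 10.2%, 0.374% and 7.01% were called in these comparisons. Of 17 tested genes in the list of other NRF2 targets, 5 rose in CPZ against CTL and none fell, where 7.66% of all genes were called higher, with a median log2 fold change of 0.16 against -0.020 for all genes. Hmox1, which encodes the inducible heme oxygenase, was at 2.31, 4.34, 2.61, 3.05 and 2.56 CPM in CTL, 28.7, 22.9, 17.9 and 12.6 CPM in CPZ and 3.36, 6.62, 4.03 and 4.11 CPM in RCV. Every CPZ library was above all others, and CPZ was 6.86-fold above CTL (log2 fold change 2.78, 95% interval 2.23 to 3.33, adjusted p = 3.16e-06). Slc7a11, the cystine transporter that supplies cysteine for glutathione, was at 43.0, 39.1, 29.4, 45.4 and 43.0 CPM in CTL, 131.9, 117.5, 128.0 and 103.5 CPM in CPZ and 38.2, 33.4, 58.5 and 51.0 CPM in RCV. Its CPZ libraries also stood above all others, 3.01-fold above CTL (log2 fold change 1.59, 95% interval 1.26 to 1.92, adjusted p = 9.92e-06). RCV against CTL gave 0.61 for Hmox1 (adjusted p = 0.841) and 0.17 for Slc7a11 (adjusted p = 0.978). Ftl1, the ferritin light chain, rose by 0.82 (adjusted p = 4.09e-05), Ephx1, a microsomal epoxide hydrolase, by 0.58 (adjusted p = 0.000803) and Pgd, an enzyme of the pentose phosphate pathway, by 0.37 (adjusted p = 0.0362) on the log2 scale. The call of Pgd was lost under 10 of 25 alternatives. Counts were not whole for Ftl1 in 13 and for Slc7a11 in 9 of 13 libraries, so part of their reads is shared with other genes. In the same comparison, 12 of 12 microglial and 6 of 10 astrocyte markers were higher in CPZ. The part of the cell mix in the rise of these NRF2 targets was not tested.

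**Figure D5:**
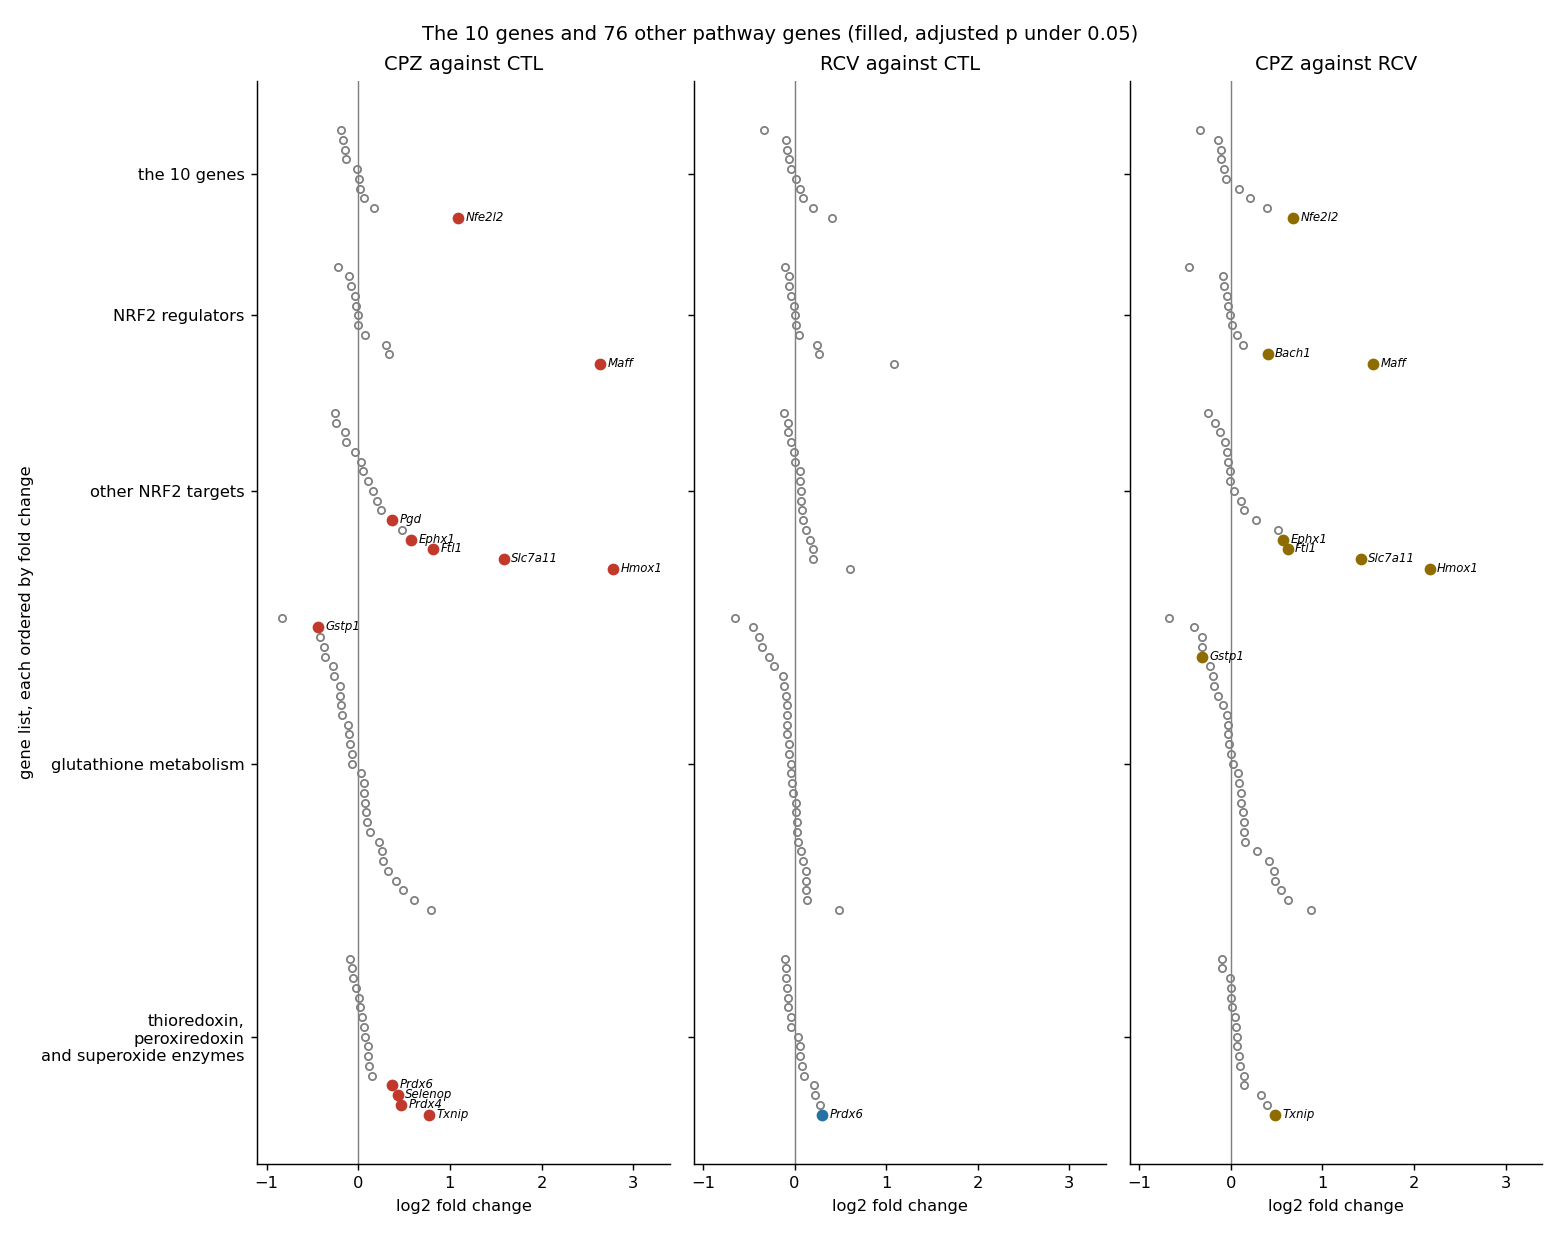
Log2 fold changes (x axis) of the 10 genes and of 76 other genes in 4 pathway lists (y axis, each list ordered by fold change) in the 3 comparisons, with genes of an adjusted p under 0.05 filled and named. Filled points of CPZ against CTL reach 2.78 for Hmox1 and 2.64 for Maff, and Gstp1 is the only gene filled below 0, at -0.44 there and at -0.31 for CPZ against RCV. Maff passed the filter on counts only through its high CPZ libraries.

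Among 11 regulators of NRF2, 1 rose in CPZ against CTL, 0 in RCV against CTL and 2 in CPZ against RCV, where 7.66%, 0.360% and 5.13% of all genes were called higher. The call in CPZ against CTL was Maff, and those in CPZ against RCV were Maff and Bach1, so these counts rest on calls limited as follows. Maff, a small MAF protein, held only 2 to 6 counts in CTL, 16 to 51 in CPZ and 5 to 11 in RCV libraries. It passed the filter on counts only through its high CPZ libraries, so its calls are not independent of that filter. With at least 10 counts required in every library, Maff was not tested. Its log2 fold change was 2.64 for CPZ against CTL (95% interval 1.76 to 3.53, adjusted p = 0.000356) and 1.55 for CPZ against RCV (adjusted p = 0.0284), and the second call was lost under 13 of 24 alternatives. Bach1, a repressor at the same elements, was 0.40 higher in CPZ than in RCV on the log2 scale (adjusted p = 0.0434), a call lost under 16 of 25 alternatives. In the list of glutathione metabolism, 1 of 31 tested genes was called in CPZ against CTL, and it fell. Over all genes, 10.2% were called in this comparison, and 374 of 14985 were called lower. Gstp1, a pi-class glutathione transferase, was at 105, 107, 115, 123 and 103 CPM in CTL, 81.5, 76.6, 83.7 and 84.1 CPM in CPZ and 97.5, 110.3, 96.4 and 101.0 CPM in RCV. All CPZ libraries lay below all others, with log2 fold changes of -0.44 against CTL (95% interval -0.58 to -0.30, adjusted p = 0.000174) and -0.31 against RCV (adjusted p = 0.00898), although its counts were not whole in 12 of 13 libraries. The mature oligodendrocyte markers were also lower in CPZ, 10 of 10 against CTL and 9 of 10 against RCV, and their part in the Gstp1 result was not tested. Glutathione synthetase, Gss, gave -0.27 (adjusted p = 0.356) and glutathione reductase, Gsr, 0.062 (adjusted p = 0.795) for CPZ against CTL.

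Of 17 thioredoxin, peroxiredoxin and superoxide genes, 4 rose in CPZ against CTL and none fell, where 7.66% of all genes were called higher. Txnip, an inhibitor of thioredoxin, rose by 0.77 (adjusted p = 0.000803), the peroxiredoxin Prdx4 by 0.47 (adjusted p = 0.0138), the selenium carrier Selenop by 0.43 (adjusted p = 0.00459) and Prdx6 by 0.37 (adjusted p = 0.000287) on the log2 scale. Prdx6, a peroxiredoxin that uses glutathione, was the only one called in RCV against CTL, at 0.30 (adjusted p = 0.0331), a call lost under 16 of 25 alternatives. Txnip was also called in CPZ against RCV, at 0.48 (adjusted p = 0.0468), a call lost under 17 of 25 alternatives. The microglial and astrocyte markers given above were higher in the CPZ libraries in which these genes rose, and their part in the result was not tested.

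The genes whose pattern over the 13 libraries was most like that of Nfe2l2, by the Pearson correlation of log2-CPM among 14122 genes, were Cd9, Irf8 and Dock8, each with r = 0.978. Irf8, a transcription factor of microglia and other myeloid cells, was at 5.62 ± 1.09 CPM in CTL, 38.5 ± 9.61 in CPZ and 10.9 ± 3.05 in RCV (SD). For Nqo1 the most alike were Col8a1 (r = 0.947), Serpinb1b (0.943) and Bsg (0.932). These are descriptions over libraries that share their groups, and no p is given for them.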

How the data were processed

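Bulk RNA-seq libraries were prepared with the Kapa mRNA HyperPrep Kit and sequenced as 50-base paired reads. The authors deposited 2 values per gene: an estimated count, which is not normalised for depth, and a TPM value, which is normalised for transcript length and depth. The submitters' processing notes name STAR, RSEM and mm10, without versions, and the paper names the RNASequest pipeline. The strand setting of the counting is not given in the sources used here, so reads of overlapping opposite-strand genes may be shared. Groups came from the treatment labels, although "Veh" opens the titles of RCV libraries and the labels state fewer mice per group than there are libraries. A figure legend of the paper gives 5 control, 4 cuprizone and 4 recovery samples, all with bulk RNA-seq, while its methods state fewer mice.

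Estimated counts, of which 4.45% were not whole, were rounded. The 92 rows without a gene name held 0 counts and were left out. All 13 libraries entered 1 edgeR 4.0.16 fit (R 4.3.3): filterByExpr by group, TMM, robust quasi-likelihood F test, 1 mean per group and no covariate. Benjamini-Hochberg adjustment covered all 14985 genes tested, with a threshold of 0.05, and intervals cover 95%. CPM values are TMM-scaled. Differences in the log2 of TPM ratios were tested by exact permutation, two-sided (scipy 1.17.1). The edgeR test was checked on simulated counts, and the permutation test on made-up values with a known p. In each of the 22 pairs of libraries within a group, the chi-square of the counts per gene was 4.46 to 17.2, above counting error.

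Positions are from GENCODE M21, which held 54349 of the 55401 identifiers (98.1%). The members, the gene lists and the rule for names were chosen with earlier results of these data known. Named are the 10 genes, Hmox1, Slc7a11, the largest called changes of each pathway list (up to 5 for CPZ against CTL and up to 2 for the other comparisons), and the 3 genes most correlated with Nfe2l2 and with Nqo1. Gss, Gsr and overlapping genes are named outside that rule. Alternatives were DESeq2 size factors, the DESeq2 1.42.0 Wald test, limma-voom (limma 3.58.1), limma on log2(TPM + 1) and log2(TPM + 0.1) for genes reaching 1 TPM in 4 libraries, limma on all genes, edgeR without the filter on counts, at least 10 counts in every library, only the 2 groups compared, the replicate block and each library left out. The choroid plexus covariate and the omission of RCV libraries 3 and 4 were added after the data were seen.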

Additional observations from a re-analysis of the deposited data

Results flagged for a closer look

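One value stood apart within its group. Txnrd1 in RCV library 2 was at 71.6 CPM, while the other RCV libraries were at 58.5 to 60.3 CPM, and the gap to the nearest of them was 0.85 of the range of the group on the log2-CPM scale. Over 10 genes and 2 ratios in 3 groups, 36 sets of values were examined for such a gap, and chance marks about 1 in 20. RCV library 2 also had the highest CPM of Nfe2l2, Keap1, Nqo1, Srxn1, Gclm and Gpx1 of the RCV libraries, but not of Gclc, Gsta4 or Gstm1. Its summed markers of microglia (827 CPM), mature oligodendrocytes (9826 CPM) and choroid plexus (1432 CPM) were the highest of the RCV libraries as well. The part of that library in the Txnrd1 level was not tested.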

How the results depend on the processing

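Nfe2l2 kept its call for CPZ against CTL under all 25 alternatives, with log2 fold changes from 0.99 to 1.17. For CPZ against RCV the number of the 10 genes called fell from 1 to 0 with the choroid plexus score as a covariate and without RCV libraries 3 and 4, and was 1 to 2 with 1 library left out, where Gpx1 was added without RCV 2. Among the other pathway genes, the single call of RCV against CTL became 0 with limma-voom, the 3 limma fits of TPM, at least 10 counts, only the 2 groups compared, the replicate block and without RCV libraries 3 and 4, and was 0 to 1 with 1 library left out. For CPZ against RCV their calls fell from 8 to 5 with limma-voom, unfiltered limma on TPM, only the 2 groups compared and the choroid covariate, and ran from 5 to 10 with 1 library left out (5 without CPZ 1). Over all genes, calls of CPZ against CTL fell from 1522 to 993 with unfiltered limma on TPM. Those of RCV against CTL, 56 in the edgeR fit, were 131 with the DESeq2 Wald test, 16 with limma-voom and with unfiltered limma on TPM, 20 with at least 10 counts, 34 without RCV libraries 3 and 4, and 21 (without RCV 2) to 87 (without CPZ 3) with 1 library left out. Those of CPZ against RCV, 1051 in the edgeR fit, were 584, 503 and 477 in the limma fits of TPM (pseudocount 1, 0.1 and unfiltered), 552 with the choroid covariate, 556 without RCV libraries 3 and 4, and 632 (without CPZ 1) to 1170 with 1 library left out. The cause was not tested.

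Signs changed only for fold changes that were not called. Nqo1 became 0.069 for RCV against CTL and -0.062 for CPZ against RCV with the choroid covariate, and ran from -0.12 to 0.24 for CPZ against CTL with 1 library left out. Gclc for RCV against CTL became -0.018, -0.019 and -0.018 in the limma fits and -0.015 with the covariate, and ran from -0.059 to 0.072 with 1 library left out. Gclm became -0.0066 for CPZ against CTL with the covariate, and in the limma fits -0.053, -0.054 and -0.053 for RCV against CTL and 0.054, 0.055 and 0.054 for CPZ against RCV. With 1 library left out Gclm ran from -0.034 to 0.040 for CPZ against CTL and from -0.084 to 0.00036 for CPZ against RCV. For CPZ against CTL, Txnrd1 became 0.0065 without the filter and 0.0029 with only the 2 groups (-0.053 to 0.023 with 1 library left out), and Srxn1 became -0.010 in the 3 limma fits (-0.023 to 0.051). Gpx1 for RCV against CTL became 0.10 with the covariate and 0.066 without RCV libraries 3 and 4 (-0.13 to 0.028 with 1 left out), and Slc7a11 became -0.14 and -0.16. The log2 ratio of Gclc to Gclm for RCV against CTL became -0.046 with CPM in place of TPM and ran from -0.0047 to 0.077 with 1 library left out. The log2 ratio of Nfe2l2 to Keap1 ran from 1.12 to 1.27 for CPZ against CTL and from 0.39 to 0.54 for RCV against CTL with 1 library left out, with adjusted exact permutation p from 0.0571 to 0.107, above the threshold because smaller groups raise the smallest p.

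The same replicate number did not pair libraries: 12 same-numbered pairs correlated at -0.199 to 0.136 in their deviations from the group means, with 3 above 0.1. With the replicate block, 1 of the 10 genes was called for CPZ against CTL, 0 for RCV against CTL and 1 for CPZ against RCV. Nqo1, with 15 to 50 counts per library, had the widest intervals of the 10 genes.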
